A study of Mus musculus with 8 samples.

Results

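A set of 40 genes of the cell cycle, mitosis and DNA replication in mouse liver is described here, chosen by name from the 25239 genes of the deposited count table. All 40 passed the filter on low counts, as did 14861 genes in all. RNA was taken from the liver of adult males, with 4 libraries in each of 2 groups. The control libraries are labelled Zf36l1 fl/fl with genotype WT, and the knockout libraries Zfp36l1 fl/fl Alb-Cre+, so both groups carry the loxP-flanked alleles and the Cre transgene is named for the knockouts alone. The Alb promoter is active in hepatocytes and in the fetal precursors that they share with biliary cells, and which cells lost the gene was not measured here. The labels do not say that each library came from its own mouse, and p-values then measure the spread between these libraries, which may be technical.

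Proliferating cells pass through G1, in which cyclin D and cyclin E kinases free the E2F transcription factors, and through S phase, in which the MCM helicase opens the DNA for copying. In G2 and M phase cyclin B with CDK1 drives mitosis, and mitotic genes are transcribed late in the cycle under the MuvB complex and FOXM1. Most hepatocytes of an adult liver rest outside the cycle and can return to it after injury. ZFP36L1 attaches through its zinc fingers to AU-rich stretches of mRNAs and promotes their decay. The genes were split into 15 that act in G1 and S phase (G1/S) and 25 that act in G2 and M phase (G2/M).

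Zfp36l1 was at 259 ± 47.9 CPM (counts scaled to library size with TMM factors; SD, n = 4) in control and 65.1 ± 8.97 CPM in knockout libraries. It fell by 1.99 on the log2 scale (SE 0.14; edgeR, adjusted p = 0.000309). Permuting the group labels over all 70 assignments gave an exact two-sided p = 0.0286, the smallest it can give. Libraries held 104842873 to 140582588 counts, so that 3 counts correspond to 0.0215 to 0.0277 CPM. Throughout, p-values come from the quasi-likelihood test of edgeR, adjusted by Benjamini and Hochberg's method over every tested gene. A fold change is the log2 ratio of knockout to control, and "rose" or "fell" means adjusted p under 0.05. The 6 hepatocyte markers Alb, Apoa1, Apob, Ttr, Cps1 and Serpina1c were abundant, with a summed level of 75110.5 to 83053 CPM in control and 89286 to 99736 CPM in knockout libraries. Of the 6, 3 had a fold change above 0, against 48.4% of all tested genes. Of these markers 0 rose and 0 fell, against 3.51% and 1.88% of all, and their fold changes ran from −0.25 to 0.41.

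Promoters are shown because G1/S and G2/M genes carry different elements near their start sites. A RefSeq promoter window of 300 bases (GRCm38.p6, 250 bases before to 50 after the first listed start) was matched by symbol for 31 of the 40 genes, 12 of G1/S and 19 of G2/M. The windows were searched on both strands for the E2F site (TTTCCCGC, TTTCGCGC, TTTGCCGC or TTTGGCGC), the cell cycle homology region bound by MuvB (CHR, TTTGAA) and the CCAAT box bound by NF-Y (CCAAT). E2F matches on opposite strands can overlap each other. Windows of 2 MCM genes with E2F matches and of 3 mitotic genes with CHR matches are printed, with every match of the 3 motifs in capitals.
Mcm5, chr8:75109259-75109558, plus strand: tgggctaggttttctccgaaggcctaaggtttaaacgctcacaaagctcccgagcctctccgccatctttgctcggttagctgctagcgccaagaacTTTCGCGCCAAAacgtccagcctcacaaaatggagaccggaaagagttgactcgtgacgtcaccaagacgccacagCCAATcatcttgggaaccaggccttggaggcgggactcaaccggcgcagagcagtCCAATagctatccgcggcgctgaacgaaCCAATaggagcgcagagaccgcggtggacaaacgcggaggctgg
Mcm6, chr1:128359656-128359955, minus strand: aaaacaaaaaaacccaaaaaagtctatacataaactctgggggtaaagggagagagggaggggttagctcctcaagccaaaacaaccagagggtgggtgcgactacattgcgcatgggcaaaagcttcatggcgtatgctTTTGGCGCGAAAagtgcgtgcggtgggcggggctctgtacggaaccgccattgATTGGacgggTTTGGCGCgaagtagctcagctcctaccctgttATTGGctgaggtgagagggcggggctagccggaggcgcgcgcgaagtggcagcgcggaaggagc
Cdk1, chr10:69352863-69353162, minus strand: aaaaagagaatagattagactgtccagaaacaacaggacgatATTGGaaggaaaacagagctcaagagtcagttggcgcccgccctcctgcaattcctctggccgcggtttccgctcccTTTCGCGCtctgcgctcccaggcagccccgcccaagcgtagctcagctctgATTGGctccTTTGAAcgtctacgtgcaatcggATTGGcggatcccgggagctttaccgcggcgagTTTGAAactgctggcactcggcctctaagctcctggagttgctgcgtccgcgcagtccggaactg
Cdc20, chr4:118437294-118437593, minus strand: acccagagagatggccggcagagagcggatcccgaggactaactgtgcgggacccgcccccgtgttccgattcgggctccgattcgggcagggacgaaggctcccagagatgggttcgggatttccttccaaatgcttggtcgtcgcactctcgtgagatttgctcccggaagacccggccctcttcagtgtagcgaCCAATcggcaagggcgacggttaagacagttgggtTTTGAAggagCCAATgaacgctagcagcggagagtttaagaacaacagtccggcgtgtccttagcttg
Mki67, chr7:135716330-135716629, minus strand: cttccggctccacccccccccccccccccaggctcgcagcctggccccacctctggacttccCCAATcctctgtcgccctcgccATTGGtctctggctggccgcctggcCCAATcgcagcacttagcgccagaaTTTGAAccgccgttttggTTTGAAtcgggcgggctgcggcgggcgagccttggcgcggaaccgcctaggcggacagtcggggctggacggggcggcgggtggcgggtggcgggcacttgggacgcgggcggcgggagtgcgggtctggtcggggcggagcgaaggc

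An E2F match was found in 5 of the 12 G1/S promoters (41.7%) and in 1 of the 19 G2/M promoters (5.26%), against 2.32% of 27025 promoters in all. The G1/S genes with a match were Mcm3, Mcm5, Mcm6, Mcm7 and Hells, and the G2/M gene was Cdk1. The windows of E2f1, Mcm2 and Rrm2, which rose in the knockout, held no E2F match. A CHR match was found in 13 of the 19 G2/M promoters (68.4%) and in 1 of the 12 G1/S promoters, that of Mcm2 (8.33%), against 18.1% of all. CCAAT was in 84.2% of G2/M, 66.7% of G1/S and 37.9% of all promoters. All 13 G2/M windows with a CHR match also held CCAAT, a pair found in 7.12% of all windows. Among other pathway genes, E2F matches were in 25% of 40 G1/S and 13.3% of 45 G2/M windows, and CHR matches in 17.5% and 75.6%. The E2f1 window ends at base 154569676, inside the gene, whose annotated 5′ end is at 154569892. The Mcm7 window likewise ends at 138172133, inside a gene with its 5′ end at 138172422. Bases before these 5′ ends were not searched. A match is a string of letters, and binding was not measured.

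**Figure D1:**
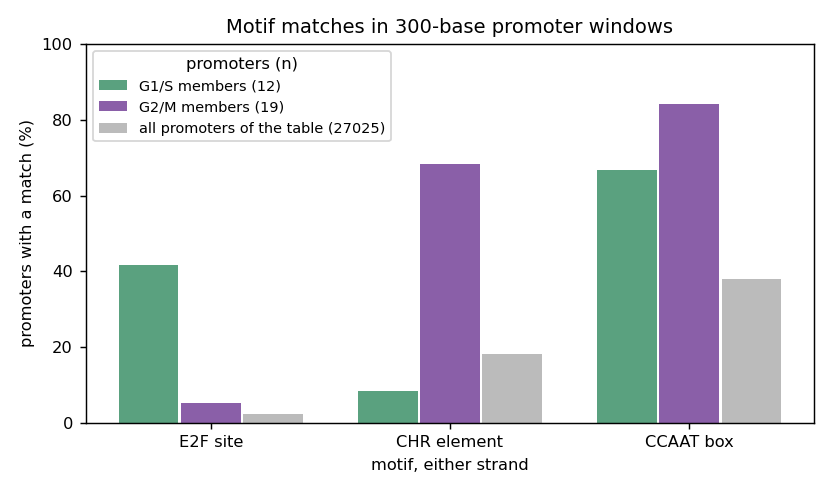
Share of promoter windows (percent, y axis) that hold each motif on either strand (x axis), for G1/S genes, G2/M genes and all windows of the table. E2F matches stand at 41.7% of the G1/S windows and CHR matches at 68.4% of the G2/M windows.

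AU-rich sites are shown because they are what the deleted protein binds. UAUUUAU occurred in the longest annotated 3′ untranslated region (GENCODE M21, mm10) of 13 of the 40 genes (32.5%), against 28.3% of 19968 genes. It was in 6 of 15 G1/S and 7 of 25 G2/M genes. Sites of E2f1, Mcm2 and Ccnd1 are printed with 8 bases on each side of the heptamer, which is in capitals together with any heptamer that overlaps it.
E2f1, chr2:154560036-154560058, minus strand: ggagcguuUAUUUAUUUAUcgag
E2f1, chr2:154559902-154559924, minus strand: aagcaguuUAUUUAUugggaaag
Mcm2, chr6:88883821-88883843, minus strand: uaaaugacUAUUUAUucuucugc
Ccnd1, chr7:144931313-144931335, minus strand: cagaagagUAUUUAUgggaaagg
They were chosen for print because E2f1 and Mcm2 rose in the knockout and Ccnd1 did not pass the test. Of all 13 genes with a site 2 rose, E2f1 with 3 sites and Mcm2 with 1, and 11 did not pass. Hells and Birc5, also with 3 sites each, were among the 11 (adjusted p = 0.641 and 0.926). Of the 27 genes without a site 1 rose, Rrm2. Of all tested genes 3.51% rose. The counts are small, and whether a site goes with a rise was not tested.

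Across the 40 genes 3 rose and 0 fell, where 3.51% of all tested genes rose and 1.88% fell. The 3 genes, E2f1, Mcm2 and Rrm2, all belong to G1/S. Log2 fold changes ran from 0.023 to 1.16 and were above 0 for all 40 genes, against 48.4% of all tested genes. When libraries were scaled by total counts alone, which moves the median of all genes from −0.011 to −0.12, they were above 0 for 35 of the 40, against 32.4% of all. The median was 0.34 for G1/S and 0.49 for G2/M genes. An unadjusted p under 0.05 was found for 8 G1/S and 0 G2/M genes, 8 of the 40, where 21.5% of all tested genes had one. DESeq2 called 5 G1/S and 0 G2/M genes higher, where it called 6.97% of all, and limma with quality weights called 3 and 0, where it called 5.59%.

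The 4 knockout libraries lay above all 4 control libraries for E2f1, Mcm2, Rrm2 and Ccne2, 4 of the 40 genes, where 7.17% of all tested genes had groups that did not overlap in this direction. With control library 4 set aside, the knockouts lay above the other 3 controls for 28 of the 40 genes, 7 of G1/S and 21 of G2/M, where 10% of all tested genes did. Control library 4 was the highest control for all 25 G2/M genes and for 12 of the 15 G1/S genes, where it was so for 24.6% of all tested genes. It stood apart from the other controls by Dixon's criterion for 21 G2/M genes and 1 G1/S gene, E2f1, where it did so for 1.13% of all. The G2/M genes for which it did so include some with a CHR match, such as Cdk1 and Cdc20. The windows of others, such as Ccnb1 and Bub1, held no TTTGAA, the only form of the CHR that was searched. Aurka, Bub1b, Cenpa and Kif11, for which control library 4 did not stand apart, each have a CHR match. A link between motifs and levels was not tested.

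The summed level of the 25 G2/M genes was 20.2, 19.8, 19.5 and 72.9 CPM in control libraries 1 to 4 and 58.4, 36.7, 29.8 and 65.7 CPM in knockout libraries 1 to 4. Control library 4 was the highest of all 8, knockout libraries 4 and 1 followed, and knockout libraries 2 and 3 lay between these and the other controls. The summed level of the 15 G1/S genes was 100.5, 109, 101 and 134 CPM in control libraries 1 to 4 and 163, 129.6, 125 and 137 CPM in knockout libraries 1 to 4. There control library 4 lay among the knockouts. Relative to the mean of the other controls, control 4 was higher by a median of 4.41-fold over the G2/M genes (1.33 to 10.7) and 1.36-fold over the G1/S genes (1.02 to 2.05), where the median over all tested genes was 0.996-fold.

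**Figure D2:**
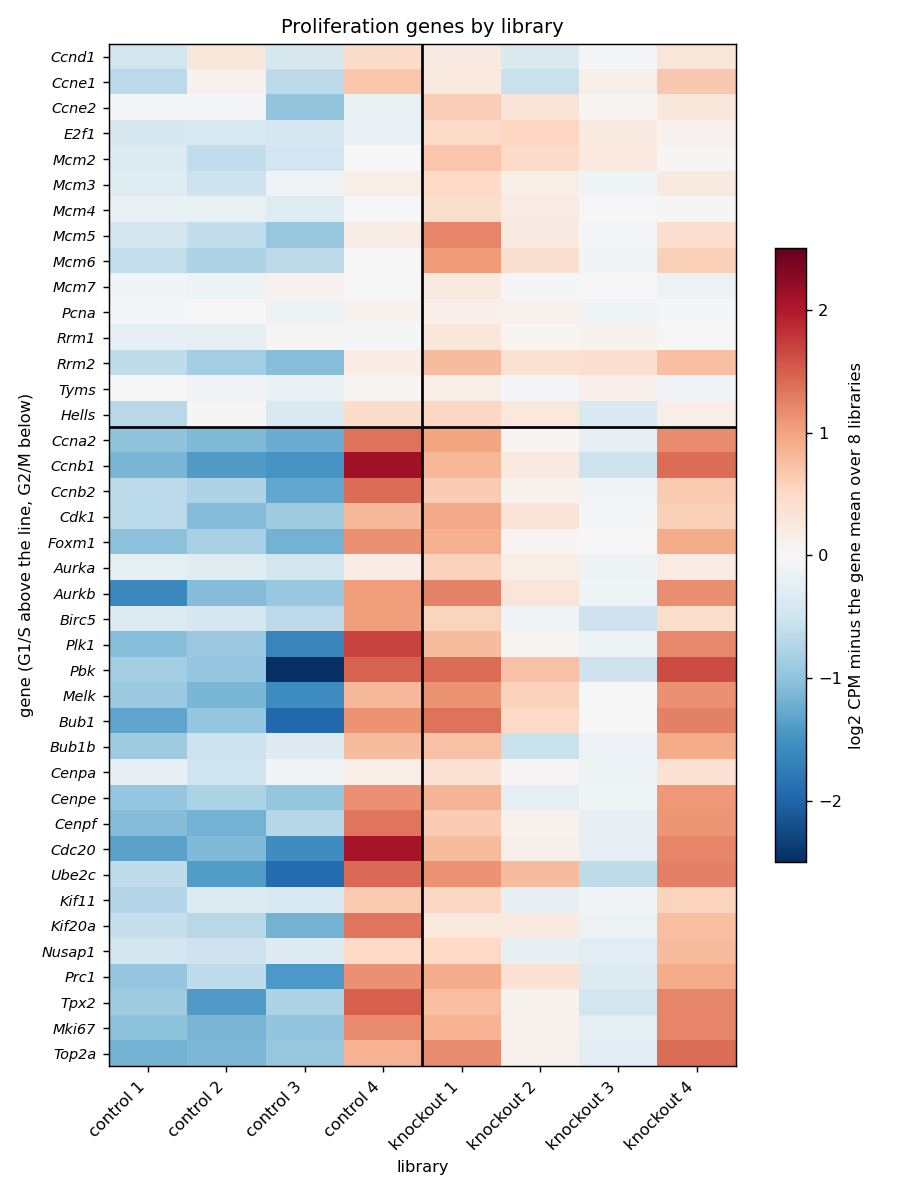
Log2 CPM of each of the 40 genes (rows) in each of the 8 libraries (columns), relative to the mean of that gene, with G1/S and G2/M genes in separate blocks. The G2/M genes are high in control 4 and in knockouts 1 and 4 and low in controls 1 to 3.

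Markers of some other cells were high in some of the same libraries. The 6 neutrophil and neutrophil precursor markers S100a8, S100a9, Ly6g, Retnlg, Mpo and Elane summed to 3.29, 0.269, 0.215 and 8.70 CPM in control libraries 1 to 4 and 50.5, 0.323, 0.318 and 20.6 CPM in knockout libraries 1 to 4. Mpo, which encodes a granule enzyme made in neutrophil precursors, was at 0.406, 0, 0.0286 and 4.00 CPM in control and 8.58, 0.0523, 0.116 and 3.29 CPM in knockout libraries. Of this list 4 markers were tested, all 4 had a log2 fold change above 0 and 0 rose, while Ly6g and Retnlg were too low to test. Control 4 was the highest control and knockouts 1 and 4 were the highest knockouts also for recruited myeloid markers (24.9 to 38.3 CPM in control and 24.3 to 62.3 CPM in knockout libraries) and for T and NK cell markers (2.59 to 6.18 CPM in control and 1.60 to 4.71 CPM in knockout libraries). Knockouts 1 and 4 were the highest knockouts as well for Kupffer cell markers (113 to 158 CPM in control and 90.7 to 252 CPM in knockout libraries) and B and plasma cell markers (1.15 to 3.54 CPM in control and 2.13 to 7.22 CPM in knockout libraries). Control 1 was the highest control for Kupffer cell markers (158 CPM, with 156 CPM in control 4). It was also the highest for B and plasma cell markers (3.54 CPM, with 3.29 CPM in control 4). T and NK cell markers were at 5.44 CPM in control 1, above each knockout, while its summed G2/M level was 20.2 CPM. The part of the cells with these markers in the results was not tested.

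The 3 libraries with Mpo above 1 CPM were control 4 and knockouts 1 and 4. They also had the highest summed G2/M levels, 72.9, 58.4 and 65.7 CPM. The summed G2/M level was 36.7 and 29.8 CPM in knockouts 2 and 3 and 20.2, 19.8 and 19.5 CPM in controls 1 to 3. A fit without the 3 libraries with Mpo above 1 CPM, chosen after seeing the data, compared 3 controls with 2 knockouts. In it the median log2 fold change was 0.32 for G1/S and 1.00 for G2/M genes. Rrm2 alone of the 40 genes rose (1.25, adjusted p = 0.0206), where 0.772% of all genes rose. The cut on Mpo left out the libraries with the highest summed G2/M levels, the high control among them. The fit therefore cannot separate a part of the cells with Mpo from the G2/M levels themselves, and that part was not tested. In bulk tissue more cycling cells and more mRNA per cycling cell cannot be told apart, nor can hepatocytes and other cycling cells.

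Of the other marker lists, stellate cell and fibroblast markers summed to 174 to 255 CPM in control and 186 to 292 CPM in knockout libraries and endothelial markers to 152 to 215 CPM in control and 154 to 222 CPM in knockout libraries. Of the erythroid precursor markers Klf1 fell (−0.84, SE 0.15, adjusted p = 0.0176), while Slc4a1 and Tfrc had fold changes above 0 that did not pass, 1.27 and 0.92 (adjusted p = 0.175 and 0.25), and Alas2 had −0.21 (adjusted p = 0.401). Ahsp is not used here. Cholangiocyte markers summed to 11.8 to 15.8 CPM in control and 5.86 to 9.21 CPM in knockout libraries, groups that did not overlap. Most of that sum is Sox9, which was at 11.5, 14.2, 11.0 and 10.3 CPM in control and 8.09, 3.73, 4.27 and 4.58 CPM in knockout libraries and fell (−1.18, SE 0.23, adjusted p = 0.0242). Of the other 4 cholangiocyte markers, Krt19, Krt7 and Cftr had fold changes of 0.099, 0.20 and 0.41 and Epcam of −0.25, none past the test, and the median of the 5 was 0.099.

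**Figure D3:**
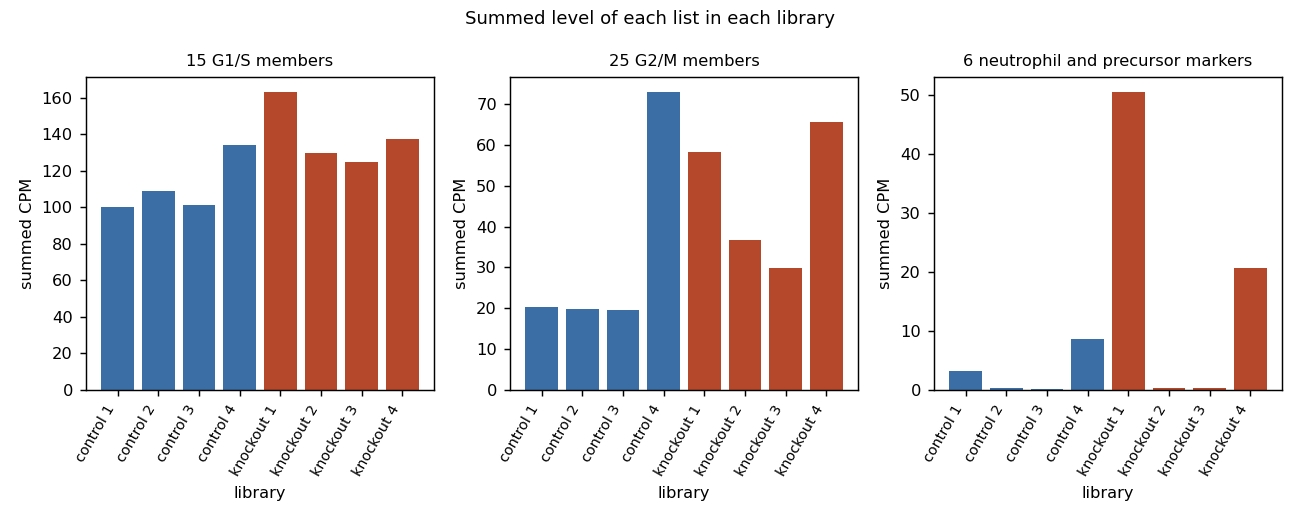
Summed CPM (y axis) in each library (x axis) of the G1/S genes, the G2/M genes and the neutrophil and precursor markers, by group. Control 4 reaches 72.9 CPM for the G2/M genes and 8.70 CPM for the markers.

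Among the regulators of G1, E2f1 rose. E2F1 is a transcription factor that turns on genes for S phase once RB releases it. E2f1 (ENSMUSG00000027490.17, mm10, chr2:154559407-154569892, minus strand) was at 4.25, 4.33, 4.21 and 4.94 CPM in control and 7.85, 8.16, 6.56 and 6.04 CPM in knockout libraries. Every knockout library lay above every control, and control 4 was the highest control. On the log2 scale the difference was 0.69 (SE 0.12, adjusted p = 0.0167). Leaving out 1 library kept the call in 6 of 8 fits and ended it at 0.051 without control 1 and 0.0545 without knockout 1.

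The cyclins of G1 did not pass. Ccnd1, the cyclin D1 gene that couples growth signals to the cycle, was at 17.4, 29.0, 18.0 and 33.0 CPM in control and 28.0, 18.5, 23.2 and 29.3 CPM in knockout libraries. Its groups overlapped, with a log2 fold change of 0.023 (SE 0.24, adjusted p = 0.965) that was −0.088 under total counts alone. Ccne1, the cyclin E1 gene, was at 0.480 to 1.23 CPM in control and 0.523 to 1.23 CPM in knockout libraries (0.22, SE 0.36, adjusted p = 0.77). Ccne2, the cyclin E2 gene, was at 0.526, 0.522, 0.272 and 0.476 CPM in control and 0.833, 0.672, 0.557 and 0.660 CPM in knockout libraries. The Ccne2 groups did not overlap, and its fold change of 0.60 (SE 0.26) had adjusted p = 0.215. Exons of 10 of the 40 genes overlap another gene, 9 of them on the opposite strand, among them Ccnd1, Ccne2, Mcm7, Ccna2, Cdc20, Ube2c and Kif20a. The strand setting of the counting is not given in the sources used here, so reads cannot be assigned between such partners.

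The 6 MCM genes encode the subunits of the ring helicase that opens DNA at replication origins, and 1 of the 6 rose. Mcm2 (chr6:88883474-88898780, minus strand) was at 5.21, 4.31, 4.71 and 6.57 CPM in control and 10.6, 9.10, 7.73 and 6.72 CPM in knockout libraries. The groups did not overlap, and they came closest at the libraries numbered 4. It rose by 0.71 (SE 0.17, adjusted p = 0.0434), and the call was lost once replicate number was a block (adjusted p = 0.0544). The call held at 0.0312 without control 4 and 0.035 without knockout 4, and was lost at 0.107 without control 1, 0.105 without control 2, 0.0787 without control 3, 0.115 without knockout 1, 0.101 without knockout 2 and 0.0817 without knockout 3.

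Mcm6 was at 4.33, 3.83, 4.14 and 6.60 CPM in control and 13.7, 8.68, 6.20 and 9.92 CPM in knockout libraries. Knockout 3 lay below control 4, and the other knockouts lay above all controls. Its fold change of 1.03 (SE 0.25) missed the threshold at adjusted p = 0.0506 and passed with the replicate block (0.0261) and without control 4 (0.033). It also passed under total counts alone (0.041), where 2.64% of all genes rose. In all, Mcm6 passed in 8 of 17 other fits, among them DESeq2, counts divided by 2 and the fit without knockout 3, and missed in the rest. Mcm5 was at 2.46, 2.18, 1.75 and 3.83 CPM in control and 7.80, 3.91, 3.30 and 4.52 CPM in knockout libraries (0.94, SE 0.31, adjusted p = 0.123), and passed with the block (0.0492). Knockout library 1 was the highest of all 8 for each of the 6 MCM genes.

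Mcm3 and Mcm4 had fold changes of 0.37 and 0.34 (adjusted p = 0.24 and 0.146). Mcm7 was at 15.9, 15.4, 18.1 and 16.8 CPM in control and 19.8, 16.4, 16.8 and 15.1 CPM in knockout libraries. Its groups overlapped, with a fold change of 0.039 (SE 0.10, adjusted p = 0.846). Per length, Mcm7 had the highest level of the 6, 5.83 CPM per kb over all libraries against 1.08 for Mcm5 to 2.05 for Mcm3.

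Rrm2, which encodes the small subunit of ribonucleotide reductase and limits the supply of deoxynucleotides, had the largest fold change of the 3 genes that rose. Rrm2 (chr12:24708241-24714146, plus strand) was at 5.52, 4.77, 4.12 and 9.75 CPM in control and 14.9, 11.2, 11.5 and 14.4 CPM in knockout libraries. All knockouts lay above control 4, which itself lay above the other controls. On the log2 scale the difference was 1.11 (SE 0.26, adjusted p = 0.0419). It was 1.44 (adjusted p = 0.00559) without control 4, and leaving out any other library ended the call, at 0.112 without control 1, 0.108 without control 2, 0.0649 without control 3, 0.109 without knockout 1, 0.0728 without knockout 2, 0.0821 without knockout 3 and 0.086 without knockout 4. Without the filter on low counts it missed the threshold (0.0553).

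The other fork and nucleotide genes did not pass. Rrm1, the large subunit of the same enzyme, was at 10.5 to 12.5 CPM in control and 12.4 to 14.8 CPM in knockout libraries (0.21, SE 0.09, adjusted p = 0.216). Pcna, the sliding clamp of the fork, was at 17.5 to 20.3 CPM in control and 17.8 to 20.9 CPM in knockout libraries (0.050, SE 0.08, adjusted p = 0.757). Tyms, thymidylate synthase, and Hells, a chromatin remodeller of S phase, had fold changes of 0.11 (SE 0.11, adjusted p = 0.611) and 0.26 (SE 0.28, adjusted p = 0.641). Under total counts alone the fold changes of Mcm7, Pcna and Tyms were −0.075, −0.064 and −0.0052. Per length, Pcna had the highest level of the 40 genes, 15.2 CPM per kb.

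**Figure D4:**
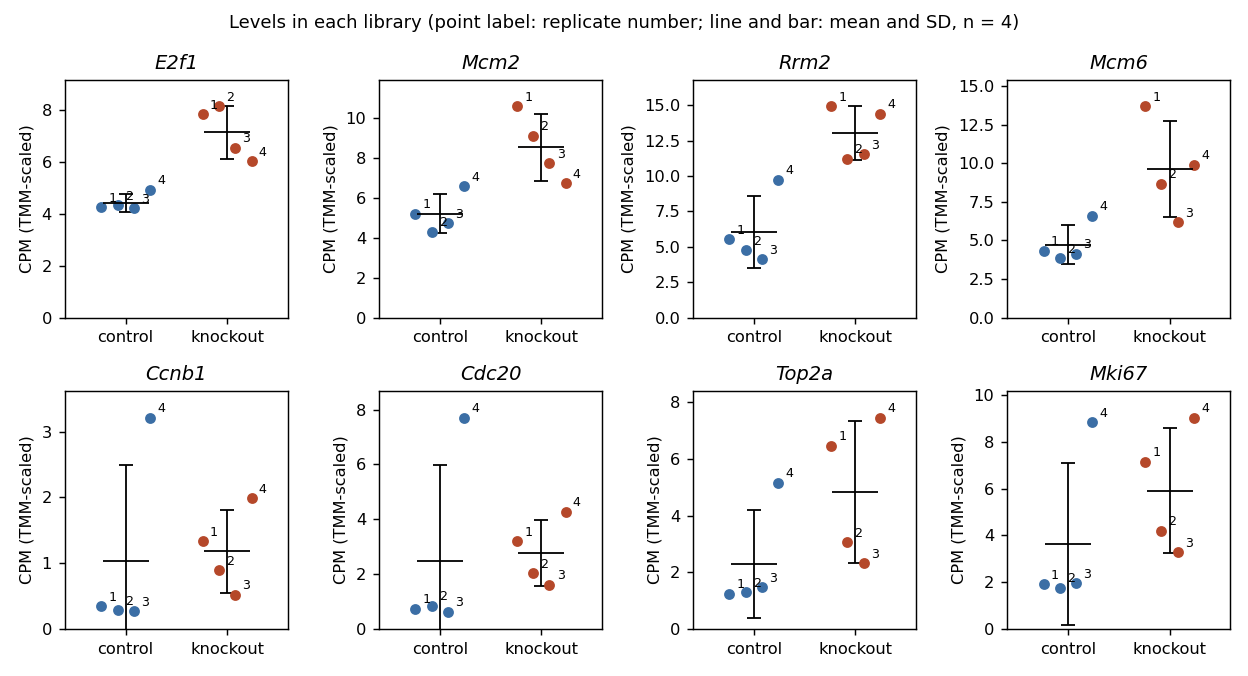
CPM (y axes, linear) of G1/S and G2/M genes in each library, with the mean and SD of each group (n = 4; bars that would reach below 0 are cut there). The knockouts lie above all controls for E2f1, Mcm2 and Rrm2, while control 4 lies above the knockouts for Ccnb1 and Cdc20.

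Of the mitotic cyclins, Ccnb1 (chr13:100778650-100786570, minus strand), the cyclin B1 gene, was at 0.342, 0.284, 0.272 and 3.22 CPM in control and 1.34, 0.890, 0.521 and 1.99 CPM in knockout libraries. Control 4 was 10.7-fold above the mean of the other controls and above every knockout, and all knockouts were above controls 1 to 3. On the log2 scale the difference was 0.20 (SE 0.89, adjusted p = 0.916) with all libraries and 1.99 (adjusted p = 0.0452) without control 4. Ccna2, the cyclin A2 gene, was at 0.582, 0.545, 0.494 and 3.01 CPM in control and 2.31, 1.20, 1.02 and 2.64 CPM in knockout libraries (0.63, SE 0.64, adjusted p = 0.615). Cdk1, the kinase that these cyclins activate, was at 0.693, 0.522, 0.595 and 1.94 CPM in control and 2.11, 1.38, 1.07 and 1.67 CPM in knockout libraries (0.73, SE 0.43, adjusted p = 0.355). Ccnb2, the cyclin B2 gene, and Foxm1, which encodes a transcription factor of mitotic genes, had fold changes of 0.27 and 0.64. Without control 4 all 5 genes rose, by 1.25 for Ccnb2 up to 1.99 for Ccnb1, where 3.03% of all genes rose.

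Among mitotic kinases and the chromosomal passenger complex, Melk, a kinase gene of dividing cells, had the largest fold change of the 40 genes (1.16, SE 0.52, adjusted p = 0.235). It was at 0.111, 0.0948, 0.0716 and 0.369 CPM in control and 0.456, 0.314, 0.210 and 0.465 CPM in knockout libraries. The groups overlapped through control 4. Aurka, a spindle pole kinase, was at 2.71, 2.57, 2.30 and 3.60 CPM in control and 4.74, 3.51, 2.90 and 3.66 CPM in knockout libraries (0.41, SE 0.19, adjusted p = 0.252). Control 4 was 1.43-fold above the other controls for Aurka, against 4.69-fold for Aurkb and 7.33-fold for Plk1. Aurkb and Birc5, partners in the passenger complex, had fold changes of 1.00 (SE 0.59, adjusted p = 0.362) and 0.082 (SE 0.41, adjusted p = 0.926). Without control 4, Aurkb (1.94, adjusted p = 0.0346), Plk1 (1.77, adjusted p = 0.0418) and Melk (1.97, adjusted p = 0.0343) rose, and Aurka, Birc5 and Pbk did not pass.

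Kinetochore and checkpoint genes link chromosomes to the spindle and delay anaphase until all are attached. Bub1, a checkpoint kinase, was at 0.111, 0.142, 0.0716 and 0.607 CPM in control and 0.715, 0.393, 0.275 and 0.668 CPM in knockout libraries (1.14, SE 0.64, adjusted p = 0.342). Cenpa, the histone H3 variant of centromeres, was at 2.78, 2.25, 3.03 and 3.58 CPM in control and 4.09, 3.24, 2.92 and 4.11 CPM in knockout libraries (0.30, SE 0.18, adjusted p = 0.355). Both overlapped, Bub1 through control 4. Without control 4 Bub1 rose (2.24, adjusted p = 0.0339), while Bub1b (0.93, adjusted p = 0.189), Cenpa (0.42, adjusted p = 0.222), Cenpe (1.41, adjusted p = 0.065) and Cenpf (1.48, adjusted p = 0.0501) did not pass.

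Cdc20 (chr4:118432901-118437352, minus strand), which activates the anaphase-promoting ubiquitin ligase, was at 0.730, 0.854, 0.630 and 7.71 CPM in control and 3.21, 2.02, 1.61 and 4.28 CPM in knockout libraries. Control 4 was 10.5-fold above the other controls and above every knockout. On the log2 scale the difference was 0.16 (SE 0.88, adjusted p = 0.932) with all libraries and 1.92 (adjusted p = 0.0278) without control 4. Ube2c, the ubiquitin-conjugating enzyme of the same ligase, was at 0.351, 0.205, 0.143 and 1.44 CPM in control and 1.18, 0.942, 0.347 and 1.31 CPM in knockout libraries (0.82, SE 0.73, adjusted p = 0.559), and did not pass without control 4 (2.03, adjusted p = 0.0589).

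Spindle and midzone genes had fold changes from 0.23 for Kif20a to 0.66 for Prc1. Kif20a, a kinesin of the central spindle, was at 1.31, 1.22, 0.867 and 4.96 CPM in control and 2.32, 2.33, 1.81 and 3.32 CPM in knockout libraries (0.23, SE 0.53, adjusted p = 0.841). Nusap1, which bundles microtubules, was at 0.702, 0.688, 0.788 and 1.39 CPM in control and 1.39, 0.855, 0.817 and 1.71 CPM in knockout libraries (0.42, SE 0.32, adjusted p = 0.49). With control 4 set aside the knockouts lay above the other controls for all 5 genes of the role, where this held for 10% of all tested genes. In the fit without it Kif20a (1.12, adjusted p = 0.0457) and Prc1 (1.53, adjusted p = 0.0452) rose while Kif11, Nusap1 and Tpx2 did not pass.

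Mki67 and Top2a, which encode the chromosome surface protein Ki-67 and a topoisomerase that untangles sister DNA, had the highest mean CPM of the G2/M genes. Mki67 (chr7:135689784-135716361, minus strand) was at 1.92, 1.77, 1.96 and 8.83 CPM in control and 7.14, 4.20, 3.28 and 9.04 CPM in knockout libraries. Top2a (chr11:98992943-99024189, minus strand) was at 1.25, 1.30, 1.48 and 5.16 CPM in control and 6.46, 3.06, 2.32 and 7.46 CPM in knockout libraries. In both genes the lowest knockout, library 3, lay above controls 1 to 3 and below control 4. The fold change was 0.71 for Mki67 (SE 0.62, adjusted p = 0.552) and 1.07 for Top2a (SE 0.58, adjusted p = 0.331). Without control 4 Mki67 rose (1.66, adjusted p = 0.039) and Top2a did not pass (1.85, adjusted p = 0.0501).

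Without control library 4, 17 of the 40 genes rose and 0 fell, where 3.03% of the 15029 genes tested there rose and 1.32% fell. These were 4 of the 15 G1/S genes, E2f1, Mcm2, Mcm6 and Rrm2, and 13 of the 25 G2/M genes. The median was 0.50 for G1/S and 1.54 for G2/M genes. This library was left out with its high values known, so these calls describe 3 controls against 4 knockouts and are no independent test. With the replicate number as a block, E2f1, Mcm5, Mcm6 and Rrm2 rose, 4 of the 40, where 4.39% of all genes rose. The G2/M median was 0.89 under the block, and 0 of the 25 genes passed.

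**Figure D5:**
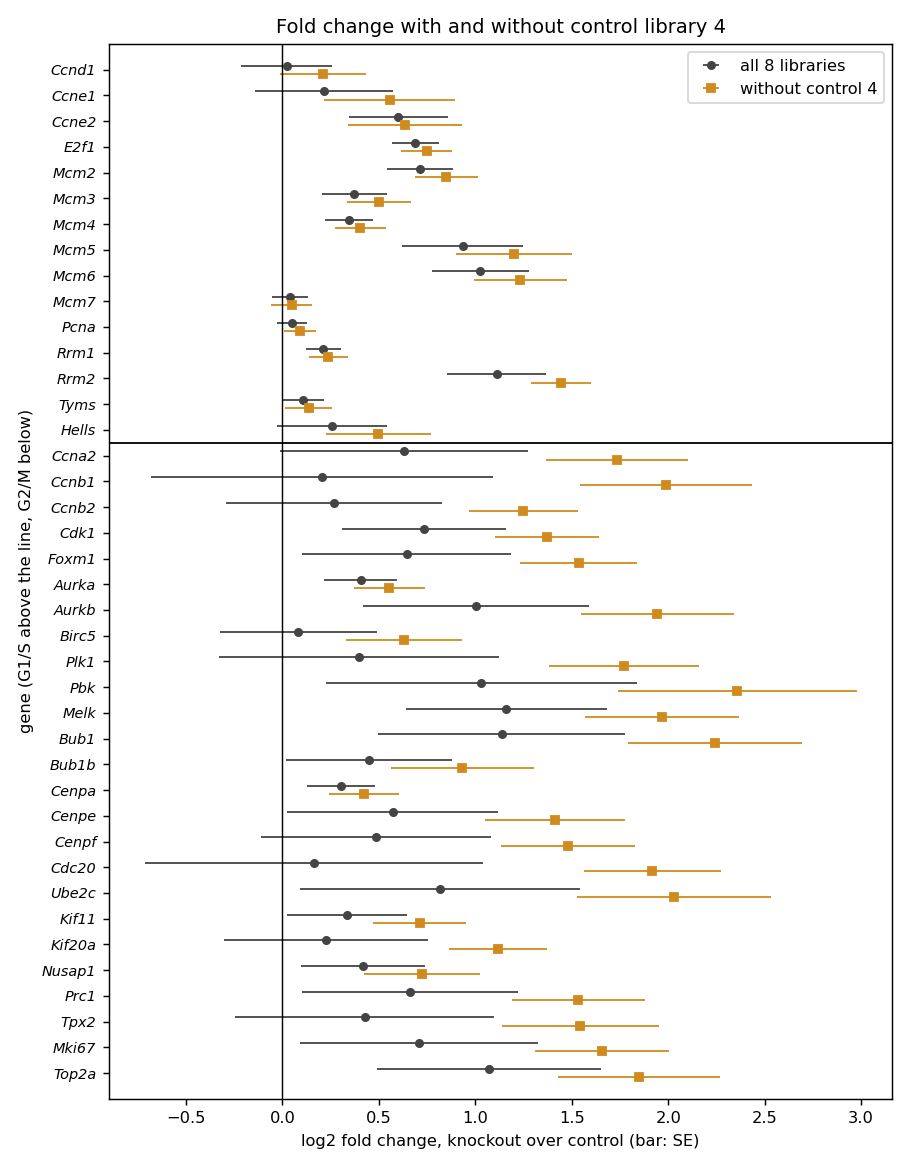
Log2 fold change of knockout over control (x axis, bars are SE) of each of the 40 genes, with all 8 libraries and without control 4, in blocks of G1/S and G2/M genes. Most G2/M genes move to the right without control 4, with a median of 1.54 against 0.49, while the G1/S median is 0.50 against 0.34.

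Other genes of the pathway were taken from lists of 137 genes, of which 136 were tested. Of 49 further G1/S genes 1 rose and 3 fell, where 3.51% of all tested genes rose and 1.88% fell. Their median was 0.12. Cdc45, which activates the MCM helicase at origins, rose. It was at 1.36, 1.30, 1.07 and 1.25 CPM in control and 2.20, 2.67, 1.82 and 1.73 CPM in knockout libraries (0.76, SE 0.18, adjusted p = 0.0409). Its groups did not overlap, control 4 was not the highest control, and its exons overlap Ufd1. The call was kept in 1 of 8 fits that left out a library, that without knockout 4 (0.0417), and the others lay between 0.0686 and 0.112.

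The genes that fell were the origin recognition gene Orc5 (−0.28, SE 0.07, adjusted p = 0.0485), the polymerase delta subunit gene Pold2 (−0.45, SE 0.10, adjusted p = 0.0314) and Impdh2, a gene of guanine nucleotide synthesis (−0.43, SE 0.07, adjusted p = 0.0126). Impdh2 kept its call in all 8 leave-one-out fits, Orc5 in 1 (0.0426 without control 4) and Pold2 in 1 (0.0183 without control 3). Orc5 and Pold2 did not pass with the replicate block (0.0682 and 0.0511), nor Orc5 with DESeq2 size factors (0.054) or without the count filter (0.0694). Exons of Impdh2 overlap Ndufaf3 on the opposite strand and those of Orc5 overlap Gm15421 on the same strand.

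Of 49 further G2/M genes 1 rose and 0 fell, against 3.51% and 1.88% of all tested genes, with a median of 0.50. Spc25, a subunit of the NDC80 kinetochore complex, was at 3.96, 4.36, 5.09 and 5.27 CPM in control and 13.6, 11.6, 8.26 and 10.1 CPM in knockout libraries (1.22, SE 0.16, adjusted p = 0.00563). Its groups stood apart and it passed in all 8 leave-one-out fits (0.00618 to 0.0227). The other NDC80 subunit genes did not pass, with fold changes of 1.09 for Ndc80, 1.06 for Nuf2 and 0.30 for Spc24 (adjusted p = 0.33, 0.37 and 0.432). Without control 4, 10 of the 49 rose, where 3.03% of all genes did. Kntc1 and Smc2 had the lowest p-values of the motor and condensin lists (1.48, SE 0.68, adjusted p = 0.254, and 0.53, SE 0.15, adjusted p = 0.0657).

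Among 38 tested regulators of the cycle 2 rose and 1 fell, shares close to the 3.51% and 1.88% of all tested genes, with a median of 0.12. E2f7, an E2F family member that represses E2F target genes and takes part in hepatocyte polyploidy, was at 0.259, 0.332, 0.215 and 0.435 CPM in control and 2.44, 1.44, 1.03 and 2.06 CPM in knockout libraries. Its groups stood apart. Its log2 fold change of 2.49 (SE 0.33, adjusted p = 0.00546) was the largest of the 40 genes and the 136 tested pathway genes, and it passed in all 8 leave-one-out fits (0.00658 to 0.0266). E2f8, its close relative, was at 8.44 to 17.3 CPM in control and 17.4 to 27.5 CPM in knockout libraries (0.77, SE 0.25, adjusted p = 0.12). Exons of E2f7 overlap 1700020G17Rik and those of E2f8 overlap Gm2788, on the opposite strand, and reads cannot be assigned between such partners. Ccng2, a cyclin gene of resting cells, rose (0.69, SE 0.16, adjusted p = 0.0441), and Cdk4, the partner kinase of cyclin D, fell (−0.30, SE 0.08, adjusted p = 0.049). Exons of Cdk4 overlap Tspan31 on the opposite strand. Leave-one-out fits kept the Ccng2 call at 0.0362 without control 3 and 0.0313 without control 4, and the Cdk4 call at 0.0234 without control 3. Cdk4 did not pass with the block (0.0612), with DESeq2 size factors (0.053) or without the count filter (0.0645), and Ccng2 did not pass under total counts alone (0.0561).

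Of the 7 tested CDK inhibitor genes, 0 passed in edgeR, where 3.51% of all tested genes rose and 1.88% fell. Of the 7, 0 had an unadjusted p under 0.05, where 21.5% of all did. Cdkn1a, the p21 gene that arrests the cycle, was at 15.4, 27.4, 6.95 and 3.08 CPM in control and 21.0, 21.0, 16.3 and 7.79 CPM in knockout libraries (0.32, SE 0.65, adjusted p = 0.816). Library 4 was the lowest of its group in both, and control 4 was the lowest of all 8. Cdkn1b, the p27 gene, was at 16.1 to 20.4 CPM in control and 17.7 to 20.9 CPM in knockout libraries (0.062, SE 0.09, adjusted p = 0.737), and Cdkn1c had the lowest p-value of the list (0.26, SE 0.18, adjusted p = 0.436).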

How the data were processed

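Total RNA from liver was made into libraries with the NEBNext Ultra II kit, per the labels' protocols. The deposited table holds raw counts per gene symbol and a gene length in bases. The genome build was mm10 per the submitters' processing notes. Aligner, counter, annotation and strand setting: not given in the sources used here. Of deposited counts from 1 to 20, 67.4% to 70.8% were even, so 1 alternative divided counts by 2. Samples were grouped by title. The filter filterByExpr, TMM scaling and the quasi-likelihood test of edgeR 4.0.16 (R 4.3.3) compared 4 knockout with 4 control libraries, and genes passed at a Benjamini-Hochberg adjusted p under 0.05. The script was tested on simulated data. Alternatives were DESeq2 size factors, total counts alone, DESeq2 1.42.0, limma 3.58.1 with voom quality weights, no or a stricter filter, a replicate block and leaving out each library. Python 3.11.15 with pandas 2.3.3 and matplotlib 3.10.9 searched sequences and drew figures.

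Deviations from group means correlated between libraries of the same replicate number (r = 0.18, 0.44, 0.32 and 0.44 for numbers 1 to 4, on log2 CPM), and each library matched its own number best. The pairing rests on this, since the labels name no shared batch. The 40 genes and all lists were chosen with earlier results of these data known. Named were the genes that passed, and in each role of the 40 genes the one with the lowest p-value and the one with the highest mean CPM, and in each pathway list every gene that passed and the one with the lowest p-value. Cdkn1a, Cdkn1b, E2f8, Ndc80, Nuf2 and Spc24 were added after their values were seen. One marker gene is not reported here. Intervals from counting were not used, and depth is given as total counts.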

Additional observations from a re-analysis of the deposited data

Results flagged for a closer look

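Control library 4 stood far above the other 3 controls. Dixon's ratio, the gap from the highest library to the next divided by the range of the 4 controls, was above its 95% critical value for 4 libraries for 21 of the 25 G2/M genes, where control 4 was so for 1.13% of all tested genes. The ratio was 0.965 for Ccna2, 0.976 for Ccnb1, 0.897 for Ccnb2, 0.879 for Cdk1, 0.926 for Foxm1, 0.889 for Aurkb and 0.889 for Birc5. It was 0.928 for Plk1, 0.843 for Pbk, 0.868 for Melk, 0.868 for Bub1, 0.963 for Cenpe, 0.917 for Cenpf and 0.968 for Cdc20. It was 0.840 for Ube2c, 0.891 for Kif20a, 0.858 for Nusap1, 0.852 for Prc1, 0.914 for Tpx2, 0.973 for Mki67 and 0.942 for Top2a. For the summed level of the 25 G2/M genes it was 0.986. E2f1 was the G1/S gene past the value, with 0.835, and Kntc1 among the pathway genes named, with 0.841. Chance flags about 1 in 20 groups, counting any library at either end. Of 108 groups tested 24 passed, each with control 4 as the high library, and these genes are measured in the same libraries and are not independent. The genes were chosen with earlier results of these data known, so the flags describe control 4 and are no test against chance.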

How the results depend on the processing

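Of all tested genes 801 changed, and the count was 1730 under total counts alone, 1738 with DESeq2, 1434 with limma and 138 without the 3 libraries with Mpo above 1 CPM. Under total counts alone 392 genes rose and 1338 fell, against 521 and 280. Of the 40 genes 3 changed, against 5 with DESeq2 and 1 without those 3 libraries. With counts divided by 2, 4 G1/S and 0 G2/M genes rose, E2f1, Mcm2, Mcm6 and Rrm2, where 539 of 14044 tested genes rose. On simulated data DESeq2 called more unchanged genes than its threshold allows, and edgeR was held to a limit looser than its threshold. The simulation gave every gene the same dispersion and had no library that stood apart. It therefore does not rank the tools for genes that vary as the G2/M genes do. Leaving out 1 library gave 211 to 967 changed genes in all, 0 to 17 of the 40, with 17 without control 4, and medians of 0.25 to 0.50 for G1/S and 0.32 to 1.54 for G2/M. Zfp36l1 ranged from −2.08 to −1.86. The sign of uncalled fold changes turned under total counts alone for Ccnd1 (−0.088), Mcm7 (−0.075), Pcna (−0.064), Tyms (−0.0052) and Birc5 (−0.027), and for Ccnd1 without the 3 libraries (−0.040). Leaving out 1 library turned the sign in some fits of uncalled genes, with ranges of −0.095 to 0.63 for Birc5, −0.17 to 1.99 for Ccnb1, −0.00020 to 1.25 for Ccnb2, −0.11 to 0.21 for Ccnd1, −0.15 to 1.92 for Cdc20, −0.027 to 1.12 for Kif20a and −0.038 to 0.094 for Mcm7. The cause was not tested.

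With the replicate number as a block 1028 genes changed, 4 of the 40. Among the genes named, Mcm5 and Mcm6 gained a call and Mcm2, Orc5, Pold2 and Cdk4 lost theirs. The SE was largest for Ccnb1, 0.89 with all libraries and 0.45 without control 4. The lowest level of any of the 40 genes, 0.0501 CPM for Pbk in control 3, was above the 3 counts of that library, 0.0215 CPM. A stricter filter left 13 of the 25 G2/M genes, so the other 12 have no value there.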
